A study of Mus musculus with 8 samples.

Results

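The kinesin, dynein and myosin motor genes of the ventral pallidum (VP) were taken from the deposited comparison of ribosome-bound and whole-tissue RNA by their gene symbols. Protein-coding genes with symbols that begin Kif, Dync, Dynll, Dynlrb, Dynlt or Myo followed by a number, together with Kifc genes and Klc1 to Klc4, gave 62 members among 14353 genes. Of these, 61 encode motor chains, namely 25 kinesin heavy chains, 3 kinesin light chains, 2 dynein heavy chains, 5 dynein intermediate or light intermediate chains, 9 dynein light chains and 17 myosin heavy chains. The remaining member, Kif1bp, was matched by its name and encodes a protein that binds kinesins, so it was kept apart from the chains. All 62 members passed the filter on low values. Other motor chains on the role lists, among them Kif7, Kif11, Klc3 and Myo19, had no deposited value under that symbol, so the members are not the whole families.

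Motor proteins turn the energy of ATP into steps along the cytoskeleton. Most kinesins walk toward the growing ends of microtubules, which in axons point away from the cell body, and cytoplasmic dynein walks the other way, so that together they carry vesicles, mitochondria and signalling endosomes out to the terminals and back. Heavy chains hold the motor domain. Intermediate and light intermediate chains of dynein, and the light chains of kinesin and dynein, help to assemble the complex and to hold cargo. The myosins counted here are the unconventional ones, which move on actin near membranes, in spines and in sensory protrusions.

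The study examined glutamatergic neurons of the VP, and its RNA experiment asked which transcripts their ribosomes carry. Tissue came from mice homozygous for VGluT2-Cre and heterozygous for the RiboTag allele of Rpl22, which puts a hemagglutinin (HA) tag on ribosomes only where Cre is made, and no animal was treated. Cre is driven by the gene of vGluT2 (Slc17a6), and a cell that made Cre at any earlier age keeps the tag. Tissue was pooled from 38 mice (15 male and 23 female) into 4 pools. Pool VP1.6 held 3 male and 4 female mice 9 to 12 weeks old. VP2.2 held 4 males and 6 females, VP2.6 held 4 males and 7 females, and VP2.11, the last pool, held 4 males and 6 females, all 10 to 16 weeks old. Each pool gave 1 INPUT library, which by its label holds RNA of all neurons and glia, and 1 TRAP library from the ribosomes caught by the antibody to HA. Values are log2 CPM, the reads of a gene scaled to a common library size, and a difference of 1 is a 2-fold change. Where 4 values follow each other they are in the order of these pools. The number of reads behind a library is unknown, since low values in the 5 libraries given at full precision never recur and so do not show the worth of 1 read, and the other 3 libraries (INPUT VP1.6 and both VP2.11 libraries) are rounded to 3 significant digits.

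INPUT VP2.2 stood apart from the other INPUT libraries in a way that follows transcript length. Its deviation from the mean of the other INPUT libraries fell with exon length across 14249 genes (Spearman's rho = -0.54), whereas INPUT VP2.6 and INPUT VP2.11 had rho of 0.43 and 0.42 and INPUT VP1.6 of 0.05. The motor heavy chains, which are long, had a median deviation of -0.55 log2 units in INPUT VP2.2, and the short light chains one of 0.30. TRAP VP2.2 leaned the other way, with a rho of 0.35 and medians of 0.28 for heavy chains and -0.38 for light chains. Results are therefore given with and without pool VP2.2 where they depend on it. In bulk samples of this kind, fewer cells of a type and less RNA per cell cannot be told apart.

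Markers of the cell types that the tissue holds separated the fractions. All 5 listed markers of glutamatergic neurons were higher in TRAP, with a median log2 fold change of 2.55, among them Slc17a6 itself (2.55) and Tbr1 (3.16). Their summed level was 297 to 425 CPM in the TRAP libraries and 49.2 to 102 CPM in the INPUT libraries, and Slc17a6 was the most abundant. Of the 5 pan-neuronal genes, 4 were higher (median 0.95), with sums of 19040 to 27470 CPM in TRAP and 5480 to 10590 CPM in INPUT, with Snap25 the most abundant. Of the GABAergic markers 3 of 5 were lower (median -1.26), while the most abundant of them, Gad1 (0.30, and -0.15 without VP2.2) and Gad2 (-0.05, and -0.49 without VP2.2), did not pass the test, and the list summed to 1067 to 1743 CPM in TRAP and 1151 to 1822 CPM in INPUT. Of the glial lists, 3 of 4 oligodendrocyte markers (median -1.91), 3 of 5 astrocyte markers (median -1.10) and 4 of 5 microglial markers (median -2.41) were lower. Oligodendrocyte RNA was still plain in TRAP, where the 4 markers summed to 385 to 565 CPM (Mbp most) against 1595 to 2634 CPM in INPUT. The astrocyte markers summed to 256 to 394 CPM in TRAP and 357 to 485 CPM in INPUT (Slc1a2 most), and the microglial markers to 14.5 to 22.1 CPM and 70.5 to 116 CPM (P2ry12 most). Of 4 endothelial and mural markers with a value (16.9 to 52.3 CPM in TRAP, 20.4 to 28.6 CPM in INPUT, Rgs5 most) only Flt1 was called (2.37, higher). Of 2 ependymal markers with a value (0.751 to 6.18 CPM in TRAP, 4.34 to 11.0 CPM in INPUT) Rarres2 was lower (-2.60). Without VP2.2 Rarres2 stood at -2.37 and was no longer called (limma, adjusted p = 0.087). How much of each motor gene's difference goes with neurons in general, and how much with the vGluT2 cells, was not tested.

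Across the 61 motor chains, 15 were higher and 6 were lower in TRAP than in INPUT (limma with the pool as a block, adjusted p under 0.05 over 14249 genes), and 40 did not pass the test. Of all genes tested, 15.4% were higher and 16.8% were lower, so the motor chains held more higher calls (24.6%) and fewer lower calls (9.84%) than the table as a whole. Their median log2 fold change was 0.46, against -0.05 over all genes. It was 0.28 without VP2.2, and 0.05 when a trend of fold change on exon length was also taken out. The calls fell unevenly over the roles. Kinesin heavy chains had 10 higher and 2 lower of 25, the intermediate and light intermediate chains of dynein 4 higher of 5, the dynein light chains 4 lower of 9, and the myosins 1 higher of 17, with no call among the 3 kinesin light chains or the 2 dynein heavy chains. Every TRAP library lay above every INPUT library for 23 of the 61 chains, where 23.3% of all genes did so, and below for 12, against 24.4% of all genes. Since the libraries are pools of animals, these p-values measure the spread between pools and not between mice.

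**Figure D1:**
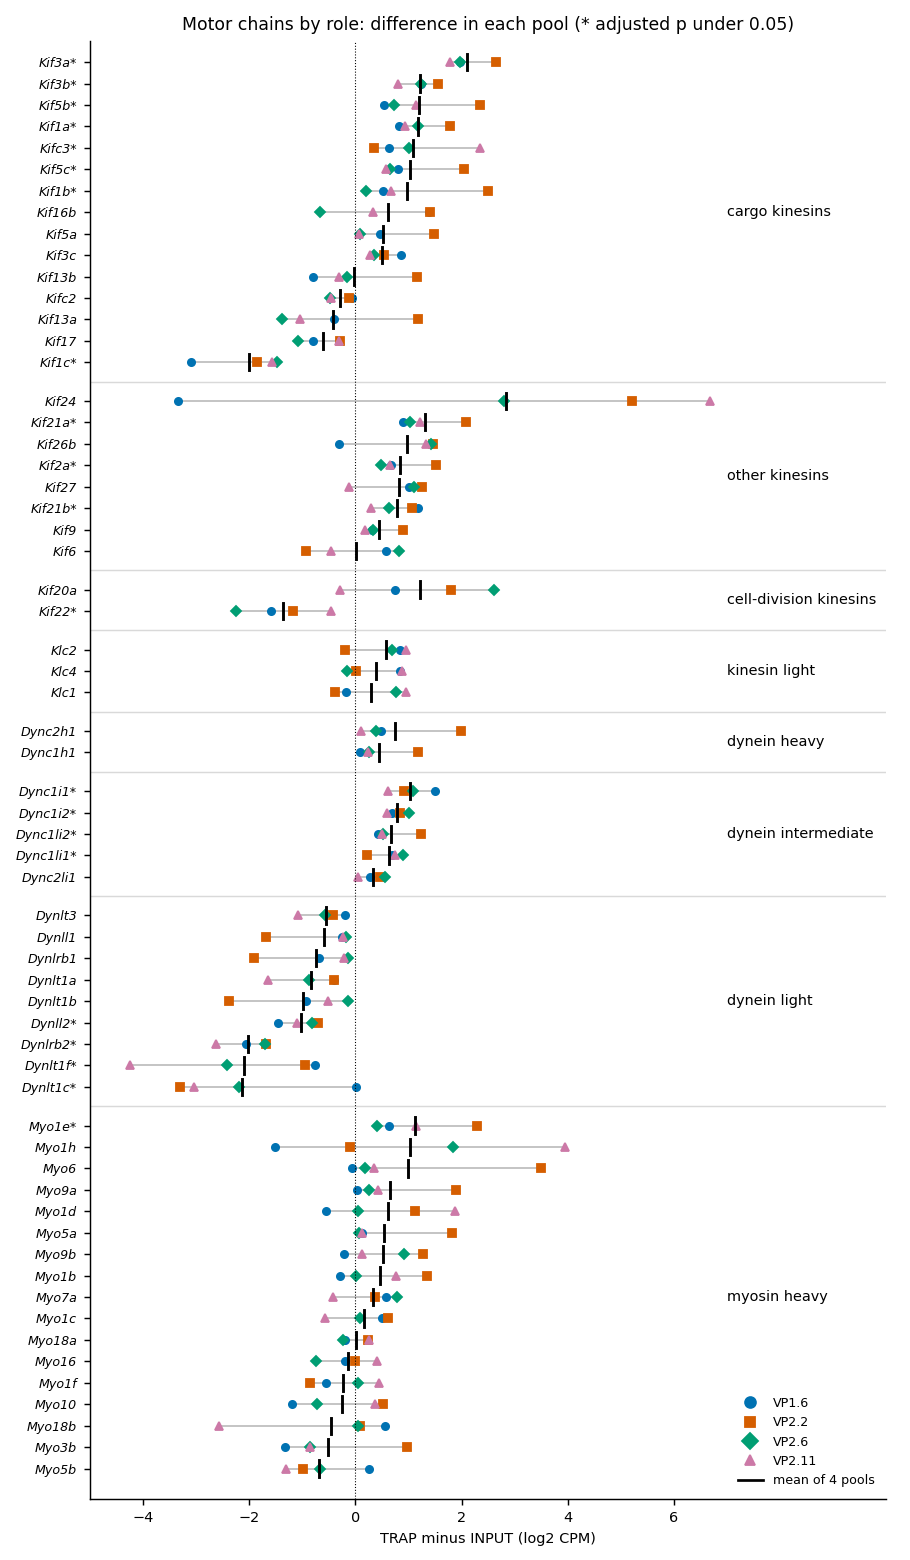
TRAP minus INPUT in log2 CPM for each of the 61 motor chains, ordered by role and by mean. Points are the 4 pools, grey lines their range and black bars their mean, and an asterisk marks an adjusted p under 0.05 (limma). All 9 dynein light chains have a mean below 0 and all 7 other dynein chains a mean above 0, while VP2.2 is the rightmost point for 27 of the 44 heavy chains.

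The KIF3 heavy chains of kinesin-2 held the largest rise among the called motor genes. Kif3a (ENSMUSG00000018395, chromosome 11 of GRCm38, 53567379 to 53601967) encodes a chain that pairs with KIF3B or KIF3C and carries vesicles and, in cilia, the building blocks of the axoneme. It read 10.05, 9.86, 9.97 and 9.99 log2 CPM in TRAP and 8.08, 7.21, 7.99 and 8.21 in INPUT. The lowest TRAP library was thus far above the highest INPUT library, and the TRAP libraries had an SD of 0.08 (n = 4). The log2 fold change was 2.10 (SE 0.23, adjusted p = 2.7e-05), or 4.27-fold, and it was 1.91 without VP2.2. Mean levels were 1002 ± 51.9 CPM in TRAP and 242 ± 65.0 CPM in INPUT (SD, n = 4).

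Kif3b, whose product is a partner of KIF3A, read 6.24, 6.19, 6.25 and 6.17 in TRAP and 5.01, 4.63, 5.01 and 5.37 in INPUT. It rose by 1.21 (SE 0.22, adjusted p = 0.0011), again with no overlap between the fractions. Kif3c, the other partner, read 6.53, 6.28, 6.26 and 6.27 in TRAP and 5.67, 5.74, 5.91 and 5.99 in INPUT, a log2 fold change of 0.51 that did not pass the test (adjusted p = 0.084) although every TRAP library lay above every INPUT library. Part of the Kif3c signal is uncertain, because 38.9% of its 75-base stretches also occur in other annotated genes. For Kif20a the share was 23.3%, for Myo1h 22.0%, for Kifc3 17.7% and for Kif2a 17.6%, and outside the Dynlt1 genes no other motor gene exceeded 8.34%. The difference of Kif3a exceeded that of Kif3b by 0.89 and that of Kif3c by 1.59 in the mean, and did so in 4 of 4 pools in each case. An exact sign-flip test over 4 pools cannot give a two-sided p under 0.125, which is the value both pairs had (0.17 after adjustment over the 8 pairs of chains compared).

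Per kb of exon, Kif3a made up 92.1% ± 0.30 (SD, n = 4) of the summed Kif3a, Kif3b and Kif3c level in TRAP and 82.8% ± 3.28 in INPUT. Kif3a was thus the main transcript of the family in both fractions, and its share was higher in TRAP in each pool. The share of Kif3c was 3.6% ± 0.234 in TRAP and 9.94% ± 2.56 in INPUT. These shares use the full exon length, while 38.9% of the 75-base stretches of Kif3c, and 0.386% of those of Kif3a, also occur in other genes. The size of each share is therefore uncertain. Kifap3, which encodes the adaptor that joins the KIF3 heavy chains to cargo, rose by 1.62 (SE 0.22, adjusted p = 0.00013).

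The KIF5 chains form kinesin-1, the main carrier of mitochondria and of many vesicles along axons, and KIF5A and KIF5C are known as neuronal while KIF5B is made in most tissues. Kif5b read 8.55, 9.04, 8.63 and 8.92 in TRAP and 8.0, 6.70, 7.89 and 7.77 in INPUT, and rose by 1.19 (SE 0.28, adjusted p = 0.0047). Kif5c read 8.37, 8.62, 8.26 and 8.27 in TRAP and 7.56, 6.58, 7.61 and 7.69 in INPUT, and rose by 1.02 (SE 0.26, adjusted p = 0.0079). For both genes the VP2.2 INPUT library was lowest by about 1 log2 unit, and without that pool the fold changes were 0.81 and 0.68 and both calls held. Kif5a was the most abundant of these genes in both fractions but read 9.58, 9.81, 9.38 and 9.37 in TRAP and 9.12, 8.34, 9.29 and 9.30 in INPUT. Its fractions differed by 0.09 in VP2.6 and 0.07 in VP2.11, and the log2 fold change of 0.53 did not pass the test (adjusted p = 0.15, and 0.21 in size without VP2.2). Per kb of exon, Kif5a held 61.0% ± 2.49 (SD, n = 4) of the KIF5 level in INPUT and 51.0% ± 2.62 in TRAP, while Kif5b went from 20.1% ± 2.34 to 26.6% ± 3.04 and Kif5c from 19.0% ± 0.590 to 22.4% ± 0.568. Kif5c exceeded Kif5a in fold change by 0.35 to 0.57 in each of 4 pools, and Kif5b exceeded it by 0.09 to 1.08, each with the smallest exact p that 4 pools allow.

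The kinesin-3 genes moved in both directions. Kif1a, which encodes the fast carrier of synaptic vesicle precursors and dense-core vesicles, read 10.02, 10.17, 10.17 and 10.10 in TRAP and 9.20, 8.39, 8.98 and 9.16 in INPUT. It rose by 1.18 (SE 0.25, adjusted p = 0.0025), and by 0.98 without VP2.2. Kif1b, a relative that carries mitochondria or synaptic vesicle precursors depending on its isoform, rose by 0.97 (adjusted p = 0.029), but its VP2.2 difference was 2.5 against 0.20 to 0.67 in the other pools, and without VP2.2 the value was 0.46 (adjusted p = 0.080). Kif1c, which encodes a widely made member that moves vesicles and integrins, was low throughout and went the other way. It read -0.07, 0.80, 0.99 and 0.74 in TRAP and 3.03, 2.65, 2.47 and 2.31 in INPUT. It fell by 2.00 (SE 0.45, adjusted p = 0.0039), so that a mean of 6.23 CPM in INPUT stood against 1.59 CPM in TRAP, with the same sign in 4 of 4 pools. Kif13a (-0.42), Kif13b (-0.03) and Kif16b (0.61), the endosomal members of the same family, overlapped between the fractions. Without VP2.2 they stood at -0.95, -0.42 and 0.35, still with no call. Kif1bp, whose product binds several kinesins, rose by 0.82 (adjusted p = 0.0081).

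Among the other kinesins that carry cargo, Kifc3, a minus-end-directed chain, rose by 1.08 (adjusted p = 0.023). This rested on VP2.11, where its difference was 2.34, and the value was 0.66 without that pool (adjusted p = 0.13). Kif17, the kinesin-2 chain of dendritic NMDA receptor transport, stood at -0.61 and Kifc2 at -0.28, and neither passed the test, although every TRAP library lay below every INPUT library for both.

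Of the 8 kinesins with roles at microtubule ends, in signalling or in cilia, 3 rose. Kif21a, which slows microtubule growth and is mutated in a congenital eye movement disorder, read 8.55, 8.77, 8.59 and 8.77 in TRAP and 7.65, 6.68, 7.55 and 7.56 in INPUT. It rose by 1.31 (SE 0.24, adjusted p = 0.0011), with a gap of nearly 1 log2 unit between the fractions. Kif2a, a microtubule depolymerase that prunes axon branches, rose by 0.83 (adjusted p = 0.013), and Kif21b, a relative of Kif21a, by 0.79 (adjusted p = 0.033). Without VP2.2 the values were 1.05 for Kif21a and 0.61 for Kif2a, both still called, and 0.70 for Kif21b with no call. Kif26b (0.98), Kif27 (0.82), Kif9 (0.44) and Kif6 (0.00) did not pass the test. Kif24, a ciliary kinesin, had the highest fold change of all motor genes (2.84) but no call (SE 1.09, adjusted p = 0.060). Its level was 3.51 in INPUT VP1.6 against -2.43 to -0.57 in the other INPUT libraries, and 5.89 in TRAP VP2.11 against 0.17 to 2.78 in the other TRAP libraries, so the fractions overlapped. Without VP1.6 it was 4.90 (adjusted p = 8e-05), and without VP2.6 2.85 (adjusted p = 0.041). Without VP2.2 it was 2.05 (adjusted p = 0.27) and without VP2.11 1.56, with no call in either case.

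Of the listed kinesins of cell division only Kif22 and Kif20a had a value, and both were scarce. Others, among them Kif11, Kif23 and Kif2c, had no deposited value. Kif22, which acts on chromosome arms in mitosis, read 1.38, 1.62, 0.64 and 2.04 in TRAP and 2.96, 2.80, 2.88 and 2.49 in INPUT, and fell by 1.36 (SE 0.40, adjusted p = 0.018). That call was lost without VP1.6 (log2 fold change then -1.29) or without VP2.6 (-1.07). Kif20a stood at 1.22 with no call, at a mean of 1.88 CPM in TRAP and 0.825 CPM in INPUT.

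The kinesin light chains link KIF5 to cargo. Klc1 read 5.75, 5.70, 6.25 and 6.47 in TRAP and 5.93, 6.08, 5.48 and 5.52 in INPUT, so that TRAP was lower in VP1.6 and VP2.2 and higher in VP2.6 and VP2.11 (log2 fold change 0.29, adjusted p = 0.41). Klc2 read 4.93, 4.45, 4.90 and 5.25 in TRAP and 4.10, 4.65, 4.21 and 4.30 in INPUT (0.57, adjusted p = 0.11). Klc4 stood at 0.40. VP2.2 was the pool with TRAP lowest relative to INPUT for Klc1 and Klc2, which is the reverse of the KIF5 heavy chains, and without it Klc2 was called higher (0.82, adjusted p = 0.018). The difference of Kif5b exceeded that of Klc1 in 3 of 4 pools, with a mean of 0.91 and a range from -0.03 to 2.73, and an exact sign-flip p of 0.25.

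**Figure D2:**
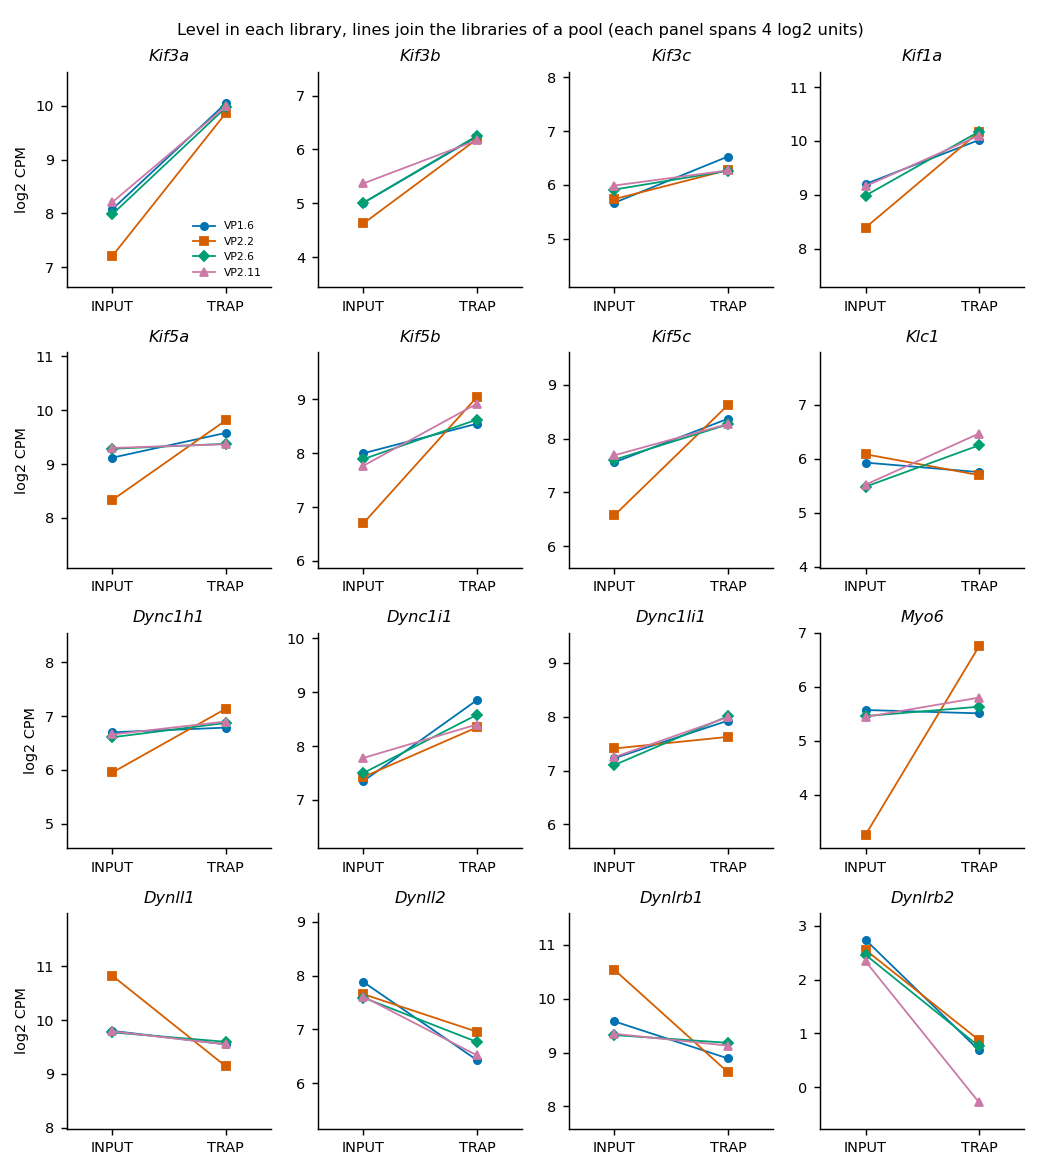
Level in log2 CPM of 16 motor genes in INPUT and TRAP, with a line for each pool. Every panel spans 4 log2 units. The lines of Kif3a, Kif3b and Kif1a rise in every pool, and those of Dynll2 and Dynlrb2 fall in every pool. The line of VP2.2 is the steepest for Kif3a, Kif3b, Kif1a, Kif5a, Kif5b, Kif5c, Dync1h1, Myo6, Dynll1 and Dynlrb1.

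Cytoplasmic dynein is built on a pair of heavy chains encoded by Dync1h1. Dync1h1 read 6.79, 7.14, 6.87 and 6.90 in TRAP and 6.70, 5.95, 6.61 and 6.66 in INPUT. Each TRAP library lay above each INPUT library, but outside VP2.2 by 0.09 to 0.27 only within a pool, and the log2 fold change of 0.44 (SE 0.23) did not pass the test (adjusted p = 0.16, and a value of 0.20 without VP2.2). Dync2h1, the heavy chain of the dynein that works in cilia, stood at 0.74 (adjusted p = 0.064), and at 0.32 without VP2.2.

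Of the 5 intermediate and light intermediate chains of dynein 4 rose, and 3 were called without VP2.2. Dync1i1 (ENSMUSG00000029757, chromosome 6 of GRCm38, 5725639 to 6028039), which encodes the intermediate chain made mainly in neurons, read 8.85, 8.35, 8.58 and 8.40 in TRAP and 7.35, 7.43, 7.50 and 7.78 in INPUT. It rose by 1.03 (SE 0.22, adjusted p = 0.0032), or 2.04-fold, and by 1.07 without VP2.2. Its difference exceeded that of the heavy chain Dync1h1 by 0.59 in the mean, in 3 of 4 pools (-0.26 in VP2.2 to 1.42, exact sign-flip test, p = 0.25, also when adjusted over 8 pairs of genes, with 0.125 the smallest p that 4 pools allow). Dync1i2, the intermediate chain made in most cells, rose by 0.79 (SE 0.21, adjusted p = 0.010), at 8.04, 7.96, 8.19 and 8.03 in TRAP and 7.35, 7.11, 7.17 and 7.43 in INPUT. The share of Dync1i1 in the summed level of both genes per kb of exon was 76.4% ± 2.55 (SD, n = 4) in TRAP and 73.3% ± 2.31 in INPUT, and the fold changes of the 2 genes differed by 0.02 to 0.08 in every pool but VP1.6, where the difference was 0.81. The light intermediate chains, which bind the adaptors that switch dynein on, rose by 0.64 (Dync1li1, adjusted p = 0.034) and 0.68 (Dync1li2, adjusted p = 0.030). Both were higher in TRAP in 4 of 4 pools with no overlap, but the call on Dync1li2 was lost with any pool left out, and that on Dync1li1 with any but VP2.2. The fold changes behind the lost calls were 0.49 to 0.76 for Dync1li2, lowest without VP2.2, and 0.55 to 0.62 for Dync1li1. Dync2li1, their counterpart in cilia, stood at 0.34 with no call.

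All 9 dynein light chains had a lower mean in TRAP, as had 7462 of all 14249 genes. The test was passed by 4 of them (44.4%), where 16.8% of all genes were lower. With VP2.2 left out and the trend on exon length taken out, 3 of the 9 were lower, where 2087 of all 14249 genes were. Dynlrb1 then stood at 0.06. Dynll2 (ENSMUSG00000020483, chromosome 11 of GRCm38, 87979525 to 87987533), which encodes an LC8 hub protein shared by dynein, myosin Va and many other complexes, read 6.43, 6.96, 6.77 and 6.52 in TRAP and 7.88, 7.65, 7.59 and 7.61 in INPUT. It fell by 1.01 (SE 0.22, adjusted p = 0.0029), or 2.02-fold, and by 1.12 without VP2.2, and the fractions did not overlap. Its paralogue Dynll1 was far more abundant, at 9.55, 9.14, 9.60 and 9.55 in TRAP and 9.80, 10.82, 9.77 and 9.79 in INPUT. The VP2.2 difference of -1.68 stood against -0.25 to -0.17 in the other pools, and the log2 fold change of -0.59 did not pass the test (adjusted p = 0.13). Dynlrb1, a roadblock light chain, read 8.89, 8.64, 9.18 and 9.13 in TRAP and 9.58, 10.54, 9.33 and 9.35 in INPUT (-0.74, adjusted p = 0.063, and -0.35 without VP2.2). Its difference was also largest in VP2.2 (-1.90), with -0.69 in VP1.6, -0.14 in VP2.6 and -0.22 in VP2.11. Its relative Dynlrb2, better known from ciliated cells and testis, was scarce, at 0.69, 0.88, 0.76 and -0.28 in TRAP and 2.74, 2.55, 2.46 and 2.34 in INPUT. It fell by 2.01 (SE 0.44, adjusted p = 0.0033), from 5.78 CPM to 1.49 CPM. Dynlt3, a Tctex light chain, read 7.94, 7.90, 7.76 and 7.40 in TRAP and 8.13, 8.32, 8.32 and 8.48 in INPUT (-0.56, adjusted p = 0.068), and passed the test without VP2.2 (-0.61, adjusted p = 0.042). Of the glial markers 3 of 4 for oligodendrocytes, 3 of 5 for astrocytes and 4 of 5 for microglia were also lower in TRAP, while Mag (0.61, and 0.36 without VP2.2) and Slc1a2 (0.21, and -0.13 without VP2.2) were not called, and their part in the light chain values was not tested.

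The other 4 light chains, Dynlt1a, Dynlt1b, Dynlt1c and Dynlt1f, are near-identical copies on chromosome 17. Of the 342 bases of their coding sequences only 1 position differs among the 4 genes. The first 60 bases, shown because they hold that position (in capitals, 5′ to 3′, from the GENCODE M21 transcripts of GRCm38), show how little there is to tell the copies apart:
Dynlt1a: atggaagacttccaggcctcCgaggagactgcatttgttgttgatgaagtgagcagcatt
Dynlt1b: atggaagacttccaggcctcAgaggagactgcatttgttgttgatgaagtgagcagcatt
Dynlt1c: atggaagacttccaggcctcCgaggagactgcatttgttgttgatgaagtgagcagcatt
Dynlt1f: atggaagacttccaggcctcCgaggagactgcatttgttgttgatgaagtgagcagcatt

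Between 62.4% and 84.8% of the 75-base stretches of these 4 genes also occur in another gene, so reads that map uniquely come from only part of each and the values are uncertain. Dynlt1c read 1.56, -0.94, -0.27 and -1.32 in TRAP and 1.54, 2.36, 1.92 and 1.71 in INPUT, with a difference of 0.02 in VP1.6 and 2.2 to 3.30 log2 units less in the other TRAP libraries (log2 fold change -2.13, SE 0.63, adjusted p = 0.018). Dynlt1f read 1.30, 1.11, -0.21 and -2.19 in TRAP and 2.05, 2.05, 2.22 and 2.05 in INPUT (-2.09, SE 0.61, adjusted p = 0.017). The calls were lost without VP2.2 for Dynlt1c (log2 fold change then -1.735) and without VP2.11 for Dynlt1f (-1.373). Dynlt1a (-0.83) and Dynlt1b (-0.99) did not pass the test. Without these 4 genes, 2 of 5 dynein light chains were lower and their median was -0.74, compared with 4 of 9 and -0.99 with them.

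The 17 myosins had a median log2 fold change of 0.32 and 1 call. Without VP2.2 the median was 0.105 with 0 calls, and with the trend on exon length taken out it was -0.06. Myo1e, which links actin to membranes at sites of endocytosis, stood at 6.67, 11.0, 6.5 and 10.9 CPM in TRAP and 4.32, 2.24, 4.88 and 4.89 CPM in INPUT. It rose by 1.12 (SE 0.38, adjusted p = 0.035), but the call was kept only without VP2.6. The value was 0.73 without VP2.2 (limma, adjusted p = 0.16), 1.29 without VP1.6 (adjusted p = 0.052) and 1.11 without VP2.11 (adjusted p = 0.068). Myo5a, the myosin V of neurons, which brings endoplasmic reticulum and vesicles into spines, was the most abundant myosin, at 8.02, 8.55, 7.98 and 8.02 in TRAP and 7.89, 6.74, 7.92 and 7.90 in INPUT. Its fractions were almost level outside VP2.2, with differences of 0.06 to 0.13, against 1.82 in VP2.2, and the log2 fold change was 0.53 (adjusted p = 0.16) with all pools and 0.11 without VP2.2. Myo6, the myosin that walks toward the minus ends of actin, read 5.51, 6.75, 5.63 and 5.80 in TRAP and 5.57, 3.25, 5.46 and 5.44 in INPUT. Its mean difference of 0.99 (adjusted p = 0.095) rested on VP2.2, where it was 3.50, and was 0.16 without that pool. Myo9a (0.65), a myosin with a GTPase-activating domain, had the same form, at 0.24 without VP2.2. The other 13 ranged from -0.68 for Myo5b to 1.04 for Myo1h and overlapped between the fractions.

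Each pool was left out in turn. Of the 22 called members, 12 were called in all 4 such fits, namely Kif1a, Kif2a, Kif3a, Kif3b, Kif5b, Kif5c, Kif21a, Kif1c, Dync1i1, Dynll2, Dynlrb2 and Kif1bp. Dync1i2 lost its call without VP2.6 (log2 fold change then 0.71), Kif1b without VP2.2 (0.46) or VP2.11 (1.07), and Kifc3 without VP2.6 (1.11) or VP2.11 (0.66). Kif21b lost its call without any pool but VP2.11 (0.66 to 0.85). Some of these values were thus as large as with all pools and others smaller. Without VP2.2, 13 of the 62 members were higher and 6 were lower, where 14.9% and 14.3% of all genes were.

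Heavy chains and light chains were then set against each other. The median log2 fold change was 0.53 over the 44 heavy chains (11 higher, 2 lower). It was 0.68 over the 5 intermediate and light intermediate chains (4 higher) and -0.78 over the 12 light chains (4 lower). Beside these counts, 15.4% of all genes were higher and 16.8% were lower. The gap between heavy and light chains was 1.32, and within the pools it was 0.61, 2.00, 0.63 and 1.09. It was therefore positive in 4 of 4 pools and widest in VP2.2, and it was 0.87 without that pool and 1.10 without the Dynlt1 genes. Without VP2.2 the heavy chain median was 0.30, with 8 higher and 2 lower, where 14.9% and 14.3% of all genes were. The light chain median was then -0.57, with 1 higher and 4 lower. Over the 8 light chains outside the Dynlt1 genes it was -0.29. The gap was not found within each family. The 9 dynein light chains had a median of -0.99, while the 3 kinesin light chains had one of 0.40 beside 0.82 over the 25 kinesin heavy chains. In the pools the kinesin light chain medians were 0.83, -0.195, 0.69 and 0.95 and the kinesin heavy chain medians 0.58, 1.4, 0.63 and 0.30, so that the light chains were the higher in 3 of 4 pools. With the trend on exon length taken out the kinesin light chain median was 0.53 and the heavy chain median 0.38. These differences were not tested.

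Kinesins were higher than dyneins by 1.28 in median log2 fold change (0.70 over 28 genes and -0.57 over 16). In each pool separately the gap was 0.69, 1.63, 0.78 and 0.69. Without VP2.2 the medians were 0.56 and -0.29. The dynein median has little meaning as a midpoint, because no dynein gene lay between -0.56 (Dynlt3) and 0.34 (Dync2li1). With 9 of 16 dynein genes below 0 the median fell among the light chains. It also lay below the dynein median of each pool taken alone (-0.08, -0.41, -0.14 and -0.23). Among genes over 1 CPM in all 8 libraries, which drops scarce light chains, the gap was 0.28. Kinesins exceeded myosins by 0.38 (0.80, 0.60, 0.58 and 0.10 in the pools).

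**Figure D3:**
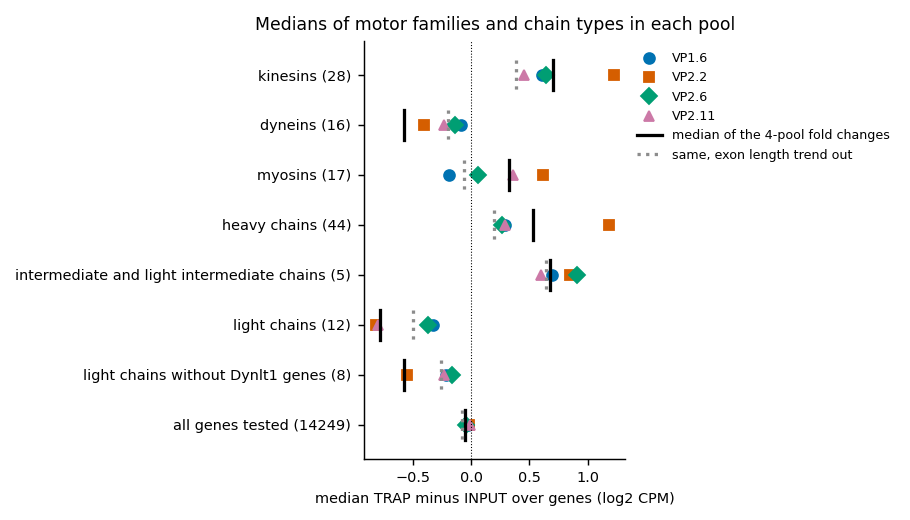
Median TRAP minus INPUT in log2 CPM over the genes of each motor family and chain type, with the number of genes in brackets. Points are the medians within each pool, black bars the median of the fold changes over 4 pools and dotted bars the same with the trend on exon length taken out. Over all families, heavy chains lie right of light chains in each pool, with the widest gap in VP2.2, while kinesin light chains, not drawn apart, were above kinesin heavy chains in 3 of 4 pools.

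Chain type and transcript length go together, and length moved with the fold change over the whole table. Across the 14249 genes, longer genes had higher fold changes (Spearman's rho of log2 fold change and exon length 0.41). In 10 bins of equal number, the median went from -0.98 in the shortest genes to 0.49 in the longest. The correlation was 0.32, 0.57, 0.22 and 0.21 in the pools, and 0.29 across the 61 motor chains, where the points share libraries. Heavy chains had a median exon length of 7451 bases and light chains one of 3181 bases. With the trend on length taken out of each pool's differences, the heavy chain median was 0.19, the light chain median -0.50 and the gap 0.69. Of the 62 members 12 were then higher and 8 were lower, against 14.1% and 17.9% of all genes. Kif3a (2.13), Kif21a (1.05), Kif3b (1.01) and Dync1i1 (1.07) kept their calls, as did Kif5b (0.84), Kif1a (0.77), Kif5c (0.72), Kif1c (-2.31) and Dynll2 (-0.88). Dync1h1 (-0.16) and Myo5a (-0.05), both very long, turned from a positive to a negative value with no call in either case, and Dynlrb1, at 1009 bases among the shortest, moved from -0.74 to -0.12. Kif1b (0.33), Kif21b (0.28), Dync1i2 (0.42), Dync1li2 (0.45), Myo1e (0.92) and Dynlrb2 (-1.09) were no longer called, while Dync2li1 (0.68), Kif17 (-0.71), Myo18a (-0.60) and Myo5b (-1.11) were. The kinesin median was 0.39 and the dynein median -0.20. With VP2.2 also left out, the heavy chain median was 0.04 and the light chain median -0.37. Over the 8 light chains outside the Dynlt1 genes the median was then -0.08, close to that of the heavy chains. What part of the length trend belongs to the libraries and what part to the cells was not tested.

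**Figure D4:**
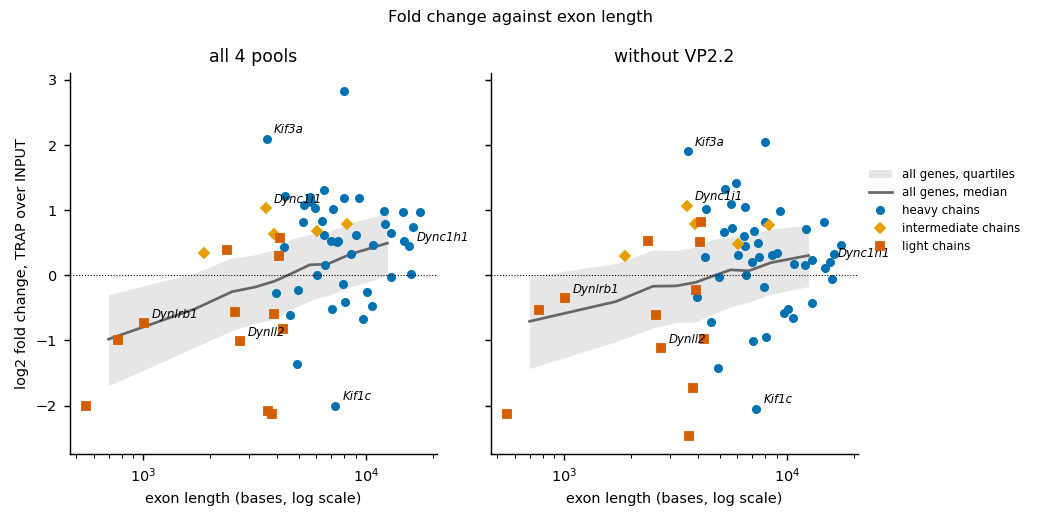
Log2 fold change of TRAP over INPUT against exon length in bases (log scale) for the 61 motor chains, with all 4 pools on the left and without VP2.2 on the right. The grey line is the median of all genes in 10 bins of length and the band their quartiles, and diamonds are intermediate and light intermediate chains. The line climbs from -0.98 to 0.49 on the left and from -0.71 to 0.30 on the right, Kif3a and Dync1i1 stand above the band, and Kif1c stands below it.

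Ordered by level per kb of exon, the leading motor transcripts of TRAP were Dynlrb1 (499 ± 83.3 CPM per kb, SD, n = 4), Kif3a (279 ± 14.5), Dynll1 (182 ± 25.1), Kif1a (119 ± 5.88), Kif5a (107 ± 16.1), Dync1i1 (106 ± 17.4) and Dynlt3 (84.6 ± 13.5). The first 3 were separate, in that the lowest TRAP library of each lay above the highest of the next, whereas Kif1a, Kif5a, Dync1i1 and Dynlt3 overlapped with their neighbours. In INPUT the order was Dynlrb1 (878 ± 400), Dynll1 (287 ± 120), Dynlt3 (124 ± 12.2), Kif5a (76.3 ± 20.6), Dynll2 (75.4 ± 7.25) and Kif3a (67.5 ± 18.1), and the libraries of the last 3 overlapped. Kif3a thus moved from place 6 among the motor chains of INPUT to place 2 in TRAP, and Dynll2 from place 5 to place 12. The dynein heavy chain gene Dync1h1 held place 22 of the 61 chains in TRAP (7.79 CPM per kb) and place 24 in INPUT (5.82 CPM per kb). Exon length is that of all annotated isoforms joined, so a gene with a long rare isoform has its level understated.

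Genes that work with the motors were examined from lists of partners. Dynactin, which couples dynein to cargo, had 4 of 12 subunits higher and none lower, with Dctn1 (1.07), the arm that holds microtubules, Actr1a (0.90), the filament, Dctn2 (0.89) and Dctn4 (0.73) as the called members and a median of 0.11 (0.37 without VP2.2). Of 14 dynein regulators and adaptors only Hook3 (0.99) rose and only Nde1 (-2.24) fell, while Pafah1b1, which encodes LIS1, did not pass the test (0.31, and 0.01 without VP2.2). Nde1, known from dividing progenitors, went from 23.9 CPM in INPUT to 5.05 CPM in TRAP, and its relative Ndel1 stood at -0.26. Of 16 kinesin adaptors, 6 rose and 3 fell. With the trend on exon length taken out 5 were higher and 6 lower, where 14.1% and 17.9% of all genes were. With VP2.2 also left out 4 were higher and 5 lower, where 1905 and 2087 of all 14249 genes were. Kifap3 rose most (1.62, SE 0.22), with a difference of 1.42 to 1.91 in every pool, next to Clstn1 (1.53), which joins KIF5 light chains to vesicles, and Grip1 (1.43), which joins KIF5 to AMPA receptors. Mapk8ip1 (-1.02), Mapk8ip2 (-0.92) and Arl8a (-0.66), all known as links between kinesins and vesicles or lysosomes, fell. Of 12 myosin II chains, myosin light chains and myosin adaptors with a value, Optn (0.95) and Myh10 (0.75), the non-muscle myosin of neurons, rose (Myh10 by 0.37 without VP2.2, adjusted p = 0.12, limma), and Myl9 (-3.21) and Myl12a (-1.49), light chains of contractile myosin II, fell. With each pool left out in turn, Optn was called in 2 of 4 fits (0.82 to 1.07) and Myh10 in 1 (0.37 to 0.90). With the trend on exon length taken out, Dctn4 (0.23), Hook3 (0.19), Rhot1 (0.38, from 0.70), Myh10 (0.29) and Arl8a (-0.44) were no longer called (limma, adjusted p of 0.43, 0.49, 0.15, 0.29 and 0.10). The kinesin adaptors Trak1 (-0.98), Trak2 (-0.60), Rhot2 (-0.73) and Mapk8ip3 (-0.55) were then called lower (adjusted p of 0.0016, 0.039, 0.030 and 0.040). Dctn3 (0.60, adjusted p = 0.035) was then called higher and Bicdl1 (-1.11, adjusted p = 0.013) lower. Rhot1 also lost its call without VP2.2 (0.49, adjusted p = 0.080). With all pools and no length correction, the lists were read against the same background of 15.4% higher and 16.8% lower. Beside it the shares of higher calls were 33.3% for dynactin, 37.5% for kinesin adaptors, 7.14% for dynein regulators and 16.7% for the myosin list. The shares of lower calls were 0% for dynactin, 18.8% for kinesin adaptors, 7.14% for dynein regulators and 16.7% for the myosin list, so those of the kinesin adaptors and the myosin list were near the background.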

How the data were processed

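Reads were aligned by the authors with STAR 2.5.1a to an Ensembl mouse assembly, counted per gene with featureCounts (unique reads), scaled by TMM in edgeR and weighted with voom. The values the authors deposited are log2 CPM for each gene and library. Their table also holds the authors' own comparison (log2 fold changes with limits, p-values, linear fold changes and transcript numbers), which was not used. Of 14398 entries, 45 repeated a gene with identical values and were left out. INPUT is taken as lysate RNA set aside before the beads, as the labels state. The methods of the study differ from the labels here, since in one place they call the RNA sequenced beside TRAP the unbound fraction, and they count more pools and mice. Which RNA it was could not be settled here, and every fold change is against that RNA.

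The 14249 genes that exceeded 1 CPM in 3 or more libraries were tested with limma 3.58.1 in R 4.3.3 (lmFit, eBayes with a trend), with the pool as a block and Benjamini-Hochberg adjustment over all genes. Both libraries of a pool come from the same mice, so pools pair them. Their deviations from the fraction means correlated at -0.75 to -0.49 within a pool and 0.05 to 0.44 between pools. The libraries of a pool thus deviated in opposite directions, so these values do not back the pairing, which rests on the labels. CPM for levels is 2 to the power of the deposited value. Exon lengths, positions and sequences came from GENCODE M21 (GRCm38), for all 62 members. The members and the role, partner and marker lists were chosen with earlier results of these data known, and 1 marker taken off a list afterwards is not reported here. Genes named with full values were the most abundant and the most changed called gene of each role, the 5 highest and 5 lowest called fold changes with the same sign in every pool, and 20 subunits of the main cargo motors. Other genes are given by their fold change, and Kif24, Kif1b, Kifc3 and Myo9a were described further after their values were seen. The length correction took a loess trend (span 0.3) of each pool's differences on log exon length. The fit was tested on simulated data. Alternatives were no block, other filters and scalings, array weights, a pseudocount of 1, the length correction and each pool left out. Depth is unknown.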

Additional observations from a re-analysis of the deposited data

Results flagged for a closer look

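In groups of 4 libraries, a value was marked where its gap to the nearest of the others took up more of the group's range than Dixon's 95% limit allows. Of 54 groups examined (27 genes in 2 fractions), 13 were marked, where chance gives about 1 in 20, or 2.7. INPUT VP2.2 held 8 of the 13. In that library 7 genes for heavy or light intermediate chains were low, namely Dync1h1 at 5.95 log2 CPM (the other INPUT libraries 6.61 to 6.70), Dync1li2 at 6.39 (6.95 to 7.02), Kif21a at 6.68 (7.55 to 7.65), Kif5c at 6.58 (7.56 to 7.69), Myo1e at 1.16 (up to 2.29), Myo5a at 6.74 (7.89 to 7.92) and Myo6 at 3.25 (5.44 to 5.57). Dynll1 was high there, at 10.82 (9.77 to 9.80). In TRAP VP2.2 Dynll1 and Myo5a were marked on the other side, with Dynll1 low at 9.14 (9.55 to 9.60) and Myo5a high at 8.55 (7.98 to 8.02). The other marked values were Dynlrb2 in TRAP VP2.11, low at -0.28 (0.69 to 0.88), Dynlt1f in INPUT VP2.6, high at 2.22 (2.05 in each of the others), and Kif3c in TRAP VP1.6, high at 6.53 (6.26 to 6.28).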

How the results depend on the processing

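Without a replicate block, 21 of the 62 members were higher and 12 were lower (16 and 6 with it), and 6830 genes were called in all (4592 with it). A further demand for a log2 change of 1 or more in size left 9 higher and 6 lower, with 3112 genes called in all. Among genes over 1 CPM in all 8 libraries 2 were lower, since that filter drops Kif1c, Dynlrb2, Dynlt1c and Dynlt1f, which fell under 1 CPM in some TRAP libraries, and the kinesin minus dynein gap was 0.28. That gap was 0.58 with the exon length trend taken out, a setting under which Dync1h1 (-0.16) and Myo5a (-0.049) changed sign. With each pool left out the counts were 12 to 14 higher and 5 to 6 lower, the heavy minus light gap was 0.87 to 1.56, the kinesin minus dynein gap 0.85 to 1.38, the kinesin minus myosin gap 0.36 to 0.55 and the number of all genes called 3232 to 4156. Median centring, quantile normalisation, array weights, a pseudocount of 1 and no filter gave 16 to 17 higher and 6 to 8 lower. The other settings, added after the data were seen, were leaving out the Dynlt1 genes (4 lower) and leaving out VP2.2 with the length trend taken out (12 higher, 8 lower). Under the latter, 1905 of all 14249 genes were higher and 2087 lower. Of 320 comparisons of the 27 named genes across settings, 281 kept their direction and side of the threshold, 23 lost and 14 gained a call, and 2 changed sign without a call. Of 7233 genes with a measured change under 0.6 log2 units in size, 17 were called. Since these genes were chosen by their measured change, the count does not show how often a true change of that size is resolved.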
